A study of Mus musculus with 72 samples.

Results

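The 8 clock-linked cell cycle regulators described here are Wee1, Cdkn1a, Ccnd1, Ccne1, Myc, Gadd45a, Gadd45b and Gadd45g. They were taken by gene symbol from the 55573 genes of the liver count table, and each symbol matched 1 row. Their transcripts were followed over the day in mouse liver with and without the hepatocyte clock and with and without gut microbes. All mice were males on a C57BL/6 background (C57BL/6J in the study's methods) that were 10 to 14 weeks old when they were moved to individual housing, some weeks before the livers were taken, and all were held in a 12 h light and 12 h dark cycle. WT mice carried loxP-flanked Bmal1 (Bmal1 fl/fl) without Cre. LKO mice carried Bmal1 fl/fl together with Albumin-Cre, whose promoter is active in hepatocytes. Which other cells of the liver kept Bmal1 was not measured here. Either genotype was kept under specific pathogen-free (SPF) conditions, with a gut microbiota, or was germ free (GF), from a line rederived without microbes and housed in isolators. Livers were collected at zeitgeber time (ZT, hours after lights on) 2, 6, 10, 14, 18 and 22, with 3 mice for each ZT and group, which gave 18 libraries in each of 4 groups and 72 in all.

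The clock and the division cycle meet at several of these genes. CLOCK and BMAL1 bind E-box elements and activate their target genes, among them the Per and Cry genes, whose products repress CLOCK and BMAL1, and the REV-ERB receptors, which compete with ROR receptors. Wee1 encodes the kinase that phosphorylates CDK1 and holds cells before mitosis, and it is a textbook E-box target of the clock in regenerating liver. Cdkn1a encodes p21, an inhibitor of cyclin-dependent kinases that is induced by p53 and under REV-ERB and ROR control. Ccnd1 and Ccne1 encode cyclins D1 and E1, which drive cells through G1 and into S phase. MYC is a transcription factor of growth and proliferation. GADD45A, GADD45B and GADD45G are small stress-induced proteins that bind p21, PCNA and the kinase MAP3K4. Hepatocytes of the adult liver rarely divide, so these transcripts are measured in a tissue that is mostly at rest.

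Promoter sequences are shown for members with the most changed transcript or with an E-box near the start, and they run from 250 bases before to 50 bases after a RefSeq transcript start, as given for GRCm38.p6, read 5′ to 3′ on the gene's strand. Capitals mark an E-box, CACGTG, and no other letters are in capitals. Cdkn1a has 2 starts in that table, at chr17:29090729-29091028 and chr17:29093519-29093818, both on the plus strand. Gadd45b is shown from chr10:80929841-80930140 and Gadd45g from chr13:51846425-51846724, both on the plus strand.
Cdkn1a, first start: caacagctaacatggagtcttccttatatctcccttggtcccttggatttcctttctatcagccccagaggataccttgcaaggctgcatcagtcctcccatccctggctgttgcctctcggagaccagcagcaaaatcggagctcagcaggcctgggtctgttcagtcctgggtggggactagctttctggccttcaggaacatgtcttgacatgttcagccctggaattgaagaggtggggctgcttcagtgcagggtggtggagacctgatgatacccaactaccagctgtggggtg
Cdkn1a, second start: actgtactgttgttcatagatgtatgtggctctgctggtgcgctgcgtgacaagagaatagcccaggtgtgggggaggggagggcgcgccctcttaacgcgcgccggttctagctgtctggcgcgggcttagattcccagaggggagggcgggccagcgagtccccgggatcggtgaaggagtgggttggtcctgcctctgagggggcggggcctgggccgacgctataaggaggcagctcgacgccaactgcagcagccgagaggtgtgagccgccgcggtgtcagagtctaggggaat
Gadd45b: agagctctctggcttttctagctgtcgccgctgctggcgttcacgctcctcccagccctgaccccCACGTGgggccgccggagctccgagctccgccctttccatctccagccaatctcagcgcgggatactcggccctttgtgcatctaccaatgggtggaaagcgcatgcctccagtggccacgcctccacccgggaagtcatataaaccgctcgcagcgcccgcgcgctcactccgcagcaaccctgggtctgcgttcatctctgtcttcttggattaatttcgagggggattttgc
Gadd45g: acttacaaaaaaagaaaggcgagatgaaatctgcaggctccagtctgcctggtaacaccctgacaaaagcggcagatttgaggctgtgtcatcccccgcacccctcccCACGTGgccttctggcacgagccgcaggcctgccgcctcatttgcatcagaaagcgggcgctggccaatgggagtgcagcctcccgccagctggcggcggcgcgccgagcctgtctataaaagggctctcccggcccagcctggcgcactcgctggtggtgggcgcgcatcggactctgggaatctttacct

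Of the 8 genes, 5 had an entry in the promoter table, namely Cdkn1a, Ccne1, Gadd45a, Gadd45b and Gadd45g, while Wee1, Ccnd1 and Myc did not. The E-box begins 185 bases before the start of Gadd45b and 142 bases before the start of Gadd45g. This motif was present in 7.15% of all 32851 promoter windows of the table. The other motifs searched on both strands were the E-box variant CACGTT, the D-box TTATGTAA and the ROR elements TAGGTCA and TGGGTCA, which were present in 4.68%, 0.938%, 2.61% and 3.98% of windows and in none of the windows of the 5 genes. A match here is a description of letters in a window.

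In the annotation of GRCm38, Wee1 lies at chr7:110122046-110143286 (plus strand), Cdkn1a at chr17:29090976-29100727 (plus), Ccnd1 at chr7:144929931-144939925 (minus) and Ccne1 at chr7:38097984-38107534 (minus). Myc lies at chr15:61985391-61990374 (plus), Gadd45a at chr6:67035096-67037457 (minus), Gadd45b at chr10:80930073-80932204 (plus) and Gadd45g at chr13:51846678-51848468 (plus). Counts covered the exons of each gene, UTRs included, and did not use the strand. Ccnd1 shares 1100 exon bases with LTO1, Gadd45a 337 with E230016M11Rik and Cdkn1a 273 with AC167363.2, each on the opposite strand, and reads in shared bases were left out of the counts.

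Libraries held 17369927 to 22076113 counted reads. At this depth Ccne1, Gadd45b and Gadd45a were sparse, with median read counts of 21, 16 and 45.5 in SPF WT libraries and 7.5, 14 and 13.5 in GF LKO libraries, so their values carry a large counting error. Myc was also low in SPF WT libraries, with a median of 43 reads. The deletion removes part of Bmal1 (listed as Arntl) and the counts cover the whole gene, so its level alone does not check a library, and Npas2, a clock activator that rises without BMAL1, was used beside it. Npas2 was at 16.8 to 44.7 CPM in GF LKO libraries and at 0 to 12.9 CPM in GF WT libraries. CPM is counts scaled to a library of 1000000 reads, after an adjustment of library sizes between samples. Among SPF LKO libraries, ZT14 replicate 2 and ZT18 replicate 1 stood apart, with Npas2 at 0.22 and 1.81 CPM against a median of 24.8. Alb was at 83070 and 101300 CPM in the same libraries. Its medians were 36650 CPM in SPF LKO and 83210 CPM in SPF WT libraries. Both genes were thus at WT levels in these LKO libraries. SPF WT ZT14 replicate 3 and GF WT ZT6 replicate 3 stood apart in Arntl, with 2.12 and 8.19 CPM. These 4 libraries were kept, and member values whose call depends on them are also given without them. Their choice rested on genes that depend on the clock or the genotype. Leaving them out can therefore itself widen differences in members that follow the clock, and values from the reduced set are no independent evidence. Without them the share of all genes called between genotypes was 4.63% in place of 0.015% in SPF mice at ZT18 and 13.6% in place of 6.1% in GF mice at ZT14, and the share with a changed rhythm in SPF mice was 2.51% in place of 1.06%.

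The hepatocyte markers were present in all 72 libraries, while the pancreatic markers Cpa1, Pnlip and Prss2 were at 0 in most of them. Alb, the gene whose promoter drives the Cre, differed with genotype, with medians of 83210 CPM in SPF WT, 36650 in SPF LKO, 105000 in GF WT and 32080 in GF LKO libraries. The summed level of the other 5 hepatocyte markers was 17810 to 25370 CPM in SPF WT and 17270 to 24830 in SPF LKO libraries, and 25180 to 33180 in GF WT and 24280 to 30800 in GF LKO libraries. Summed markers of Kupffer cells ran from 176 to 461 CPM in SPF WT, 169 to 273 in SPF LKO, 142 to 290 in GF WT and 107 to 249 in GF LKO libraries, and those of sinusoidal endothelium and stellate cells overlapped between all 4 groups in the same way. Summed cholangiocyte markers had medians of 54.1 CPM in SPF WT and 70.8 in SPF LKO libraries, and of 44.3 in GF WT and 91.0 in GF LKO libraries, with 2 of the 6 markers (Sox9 and Spp1) carrying most of it. The summed pancreas and gut markers, carried mostly by Cela1, also moved with genotype, with medians of 37.8, 83.3, 52 and 111 CPM in the same order. The part of these markers in the results on the 8 genes was not tested. In bulk liver, fewer cells of a type and less RNA per cell cannot be told apart.

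Per length of exon, Gadd45g was the most abundant of the 8 transcripts in WT liver and Ccne1 the least. The medians over 18 SPF WT libraries were 11.6 CPM per kb for Gadd45g, 3.27 for Wee1, 2.37 for Ccnd1, 1.38 for Cdkn1a, 1.28 for Gadd45a, 0.774 for Myc, 0.518 for Gadd45b and 0.418 for Ccne1. In LKO liver Cdkn1a took a higher place, with a median of 11.2 CPM per kb in SPF LKO libraries, after Gadd45g at 15.2. In GF LKO libraries Cdkn1a was first at 18.2, before Gadd45g at 14.6. The spreads of neighbours in this order overlapped widely. Lengths included the exon bases shared with other genes, where reads were not counted. The values of Ccnd1, Cdkn1a and Gadd45a are therefore too low, and the order of Cdkn1a and Gadd45a in SPF WT libraries is not settled.

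**Figure D1:**
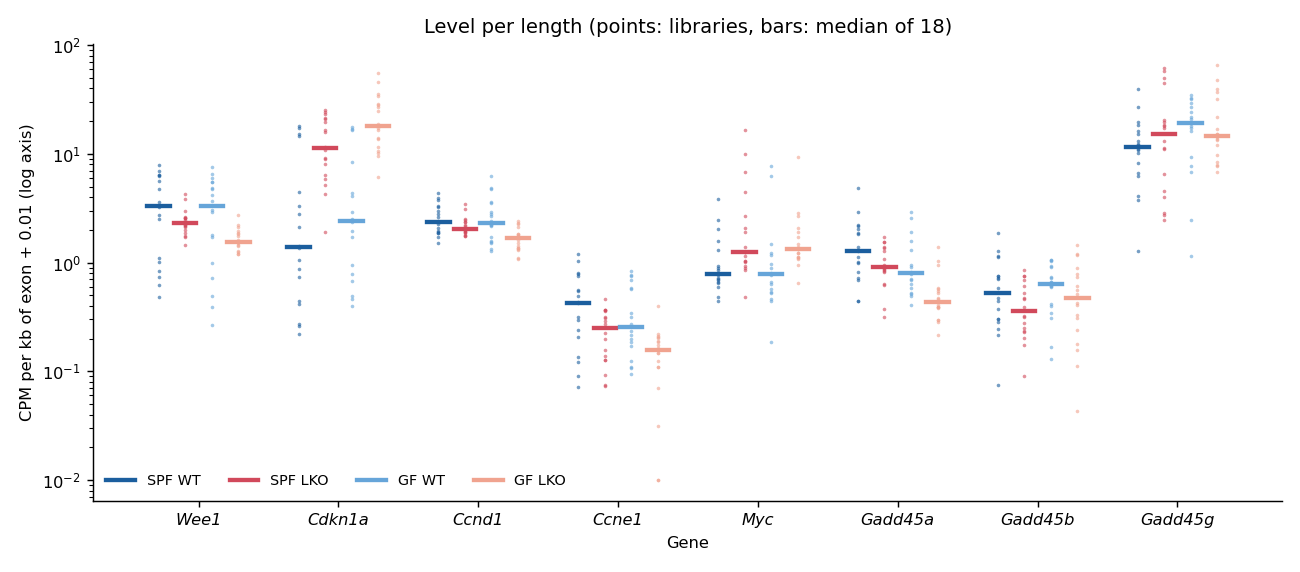
Level of each gene in CPM per kb of exon, with 0.01 added and on a log axis, for the 18 libraries of each group (points) and their median (bars). Cdkn1a shows the widest gap between WT and LKO medians, from 1.38 to 11.2 in SPF and from 2.4 to 18.2 in GF mice, and Ccne1 sits lowest in all 4 groups.

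With all times pooled, LKO mice had more Cdkn1a than WT mice, with and without microbes. The members past the threshold otherwise differed between the conditions, while every member tested in both conditions had the same sign in both. In SPF mice 3 of 8 tested members changed, with Cdkn1a and Myc higher and Ccne1 lower in LKO, beside 23.1% of all 13159 genes tested. In GF mice 4 of 7 tested members changed, with Cdkn1a higher and Wee1, Ccnd1 and Gadd45a lower in LKO, beside 30.8% of all 12662 genes. Ccne1 was under the filter on low counts in GF mice and had no edgeR test there, while DESeq2 called it there. With so few members, these shares are read as counts beside the background and were not tested against it. A gene was called where edgeR's quasi-likelihood p, adjusted by Benjamini-Hochberg over all genes, was under 0.05, and fold changes are log2 of LKO over WT with the standard error (SE).

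Cdkn1a was higher in LKO by 1.5 on the log2 scale in SPF mice (SE 0.50, edgeR adjusted p = 0.0255) and by 2.26 in GF mice (SE 0.44, adjusted p = 8.41e-05). Myc was higher by 1.47 in SPF mice (SE 0.41, adjusted p = 0.00715), with a value of 0.43 in GF mice (SE 0.39, adjusted p = 0.445). Ccne1 had a log2 fold change of -1.02 in SPF mice (SE 0.31, adjusted p = 0.0144). Wee1 had -0.55 in SPF mice (SE 0.28, adjusted p = 0.156) and -1.02 in GF mice (SE 0.30, adjusted p = 0.00721). For Ccnd1 the values were -0.25 (SE 0.12, adjusted p = 0.14) and -0.71 (SE 0.17, adjusted p = 0.0016), and for Gadd45a -0.65 (SE 0.25, adjusted p = 0.056) and -0.99 (SE 0.26, adjusted p = 0.00299). By DESeq2 the SPF value of Gadd45a passed (adjusted p = 0.0451). Gadd45b and Gadd45g passed in neither. Whether the genotype effect differed between GF and SPF mice was tested directly, and 0 of 8 members passed this test by edgeR, beside 0.438% of all genes, with 1 member (Ccnd1) at an unadjusted p under 0.05 and 0 called by DESeq2.

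Some pooled calls were lost without all libraries of 1 replicate number, which also leaves fewer mice for the test. No pooled genotype call was lost without any 1 library. Without the 4 libraries that stood apart, Gadd45a also passed in SPF mice, with -0.72 (adjusted p = 0.0394). Without the libraries of replicate number 3 the SPF value of Cdkn1a was 0.87 (adjusted p = 0.359), that of Ccne1 was -0.84 (adjusted p = 0.154) and the GF value of Gadd45a was -0.37 (adjusted p = 0.249). That of Wee1 in GF mice was -0.77 (adjusted p = 0.11). The SPF value of Myc was 1.17 (adjusted p = 0.126) without replicate number 1 and 0.93 (adjusted p = 0.177) without number 2.

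Wee1 showed a strong daily wave in WT liver that was much shallower in LKO liver, in SPF and GF mice alike. In SPF WT mice it was at 1.63, 2.10 and 2.48 CPM at ZT2 and at 16.1, 23.6 and 26.8 CPM at ZT10. In SPF LKO mice the same times gave 7.43, 8.41 and 6.37 CPM and 8.09, 8.87 and 7.59 CPM. The genotypes did not overlap at either time, with LKO above WT at ZT2 and below it at ZT10. GF WT mice went from 1.31, 1.65 and 0.882 CPM at ZT2 to 16.3, 20.6 and 22.4 CPM at ZT10. GF LKO mice had 4.87, 5.27 and 5.19 CPM at ZT2 and 7.55, 4.04 and 4.08 CPM at ZT10, again without overlap at either time. The mean of the highest ZT was 10.7 times that of the lowest in SPF WT and 15.4 times in GF WT mice, against 1.46 and 1.66 times in SPF LKO and GF LKO mice.

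The direction of the Wee1 difference therefore turned over the day. At ZT2 Wee1 was higher in LKO by 1.83 in SPF mice (SE 0.22, edgeR adjusted p = 0.000183) and by 1.99 in GF mice (SE 0.24, adjusted p = 0.000184). At ZT10 the log2 fold change was -1.44 in SPF (SE 0.23, adjusted p = 0.000745) and -1.92 in GF mice (SE 0.24, adjusted p = 6.84e-05). At ZT14 the GF value was -1.56 (adjusted p = 0.00946). The SPF value at ZT14 was -0.88 (adjusted p = 0.265) with all libraries and -1.39 (adjusted p = 0.000206) without the libraries that stood apart. The reduced SPF set held 2 WT and 2 LKO libraries at that time. At ZT6 the GF value of -1.63 (adjusted p = 0.0302) rested on GF WT replicate 3, which was at 26.1 CPM beside 10.3 and 6.12, and it was -0.83 (adjusted p = 0.136) without that library. It also missed the threshold without any 1 of the GF LKO libraries of that time, at log2 values from -1.72 to -1.57 (edgeR adjusted p from 0.0752 to 0.102).

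Cdkn1a moved the opposite way in the day. In WT liver it was lowest at ZT6 and ZT10, and there LKO liver was far above it. At ZT10 SPF WT libraries held 3.08, 0.741 and 0.883 CPM and SPF LKO libraries 69.7, 56.3 and 85.4 CPM. In GF mice the values at ZT10 were 1.39, 1.6 and 1.70 CPM in WT and 102, 196 and 164 CPM in LKO. The lowest LKO library was above the highest WT library in both. The difference was 46.5-fold in SPF mice (log2 5.54, SE 0.39, edgeR adjusted p = 5.71e-07) and 98.4-fold in GF mice (log2 6.62, SE 0.40, adjusted p = 9.03e-08). Over all comparisons of the 8 genes by ZT these were the largest fold changes.

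At ZT6 Cdkn1a was at 1.45, 0.941 and 2.6 CPM in SPF WT and at 32.5, 38.6 and 28.6 CPM in SPF LKO libraries (19.9-fold, edgeR adjusted p = 9.51e-07). GF libraries at ZT6 held 2.76, 3.37 and 2.35 CPM in WT and 48.2, 67.1 and 59.3 CPM in LKO (20.6-fold, adjusted p = 5.93e-07). Neither pair overlapped. At ZT14 the GF difference was 14.6-fold (adjusted p = 0.0102), and the SPF difference of 2.63 on the log2 scale had an adjusted p of 0.174 with all libraries and, at 2.52, of 1.46e-05 without those that stood apart. That reduced SPF set held 2 WT and 2 LKO libraries.

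In the second part of the dark phase the WT mice differed widely among themselves in Cdkn1a. SPF WT libraries held 54, 51.6 and 3.73 CPM at ZT18 and 63.6, 62 and 5.03 CPM at ZT22, with the low value in replicate 3 each time. GF WT libraries held 59.4, 15.4 and 10.3 CPM at ZT18 and 62.9, 29.6 and 8.39 CPM at ZT22, with the high value in replicate 1 each time. The LKO libraries at ZT22, from 31.8 to 59.2 CPM in SPF and from 41.3 to 99.5 CPM in GF mice, lay within or above the range of the WT libraries. No difference by genotype passed at ZT18 or ZT22, where the log2 values were between 0.01 and 0.91. At ZT18 the SPF LKO libraries held 6.82, 89.6 and 73.8 CPM, and the low one was replicate 1, which also had Npas2 at the WT level. Without the libraries that stood apart the Cdkn1a value at that time was 1.17 (edgeR adjusted p = 0.516).

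Of the G1 cyclins, Ccne1 had a wave in WT liver with the highest mean at ZT10 and Ccnd1 a shallower one. Ccne1 was at 2.10, 3.15 and 2.70 CPM at ZT10 and at 0.165, 0.297 and 0.335 CPM at ZT22 in SPF WT libraries. SPF LKO libraries held 0.949, 0.819 and 0.924 CPM at ZT10, all below WT, and 0.340, 0.315 and 0.170 CPM at ZT22, where the genotypes overlapped. The log2 fold change at ZT10 was -1.56 in SPF (SE 0.27, edgeR adjusted p = 0.00157) and -2.08 in GF mice (SE 0.31, adjusted p = 0.000335). At ZT6 the GF value was -4.23 (SE 0.64, adjusted p = 0.000878), from 1.80, 1.5 and 2.01 CPM in WT and 0, 0 and 0.267 CPM in LKO. The LKO level at that time rests on so few reads that the size of the fold is imprecise.

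In GF mice, LKO liver held less Ccnd1 than WT liver around the middle and end of the light phase. At ZT10 GF WT libraries held 22.6, 22.1 and 17 CPM and GF LKO libraries 11.2, 6.13 and 8.48 CPM, without overlap (log2 -1.25, SE 0.22, edgeR adjusted p = 0.00127). At ZT6 the values were 29.4, 11.3 and 16.5 CPM against 7.10, 6.37 and 7.59 CPM, again without overlap (log2 -1.44, SE 0.27, adjusted p = 0.00365). In SPF mice the libraries at ZT6 did not overlap either, with 15.2, 20.4 and 18.4 CPM in WT and 9.35, 11.8 and 10.4 CPM in LKO. That difference of -0.78 had an adjusted p of 0.0935 by edgeR and of 0.048 by DESeq2.

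**Figure D2:**
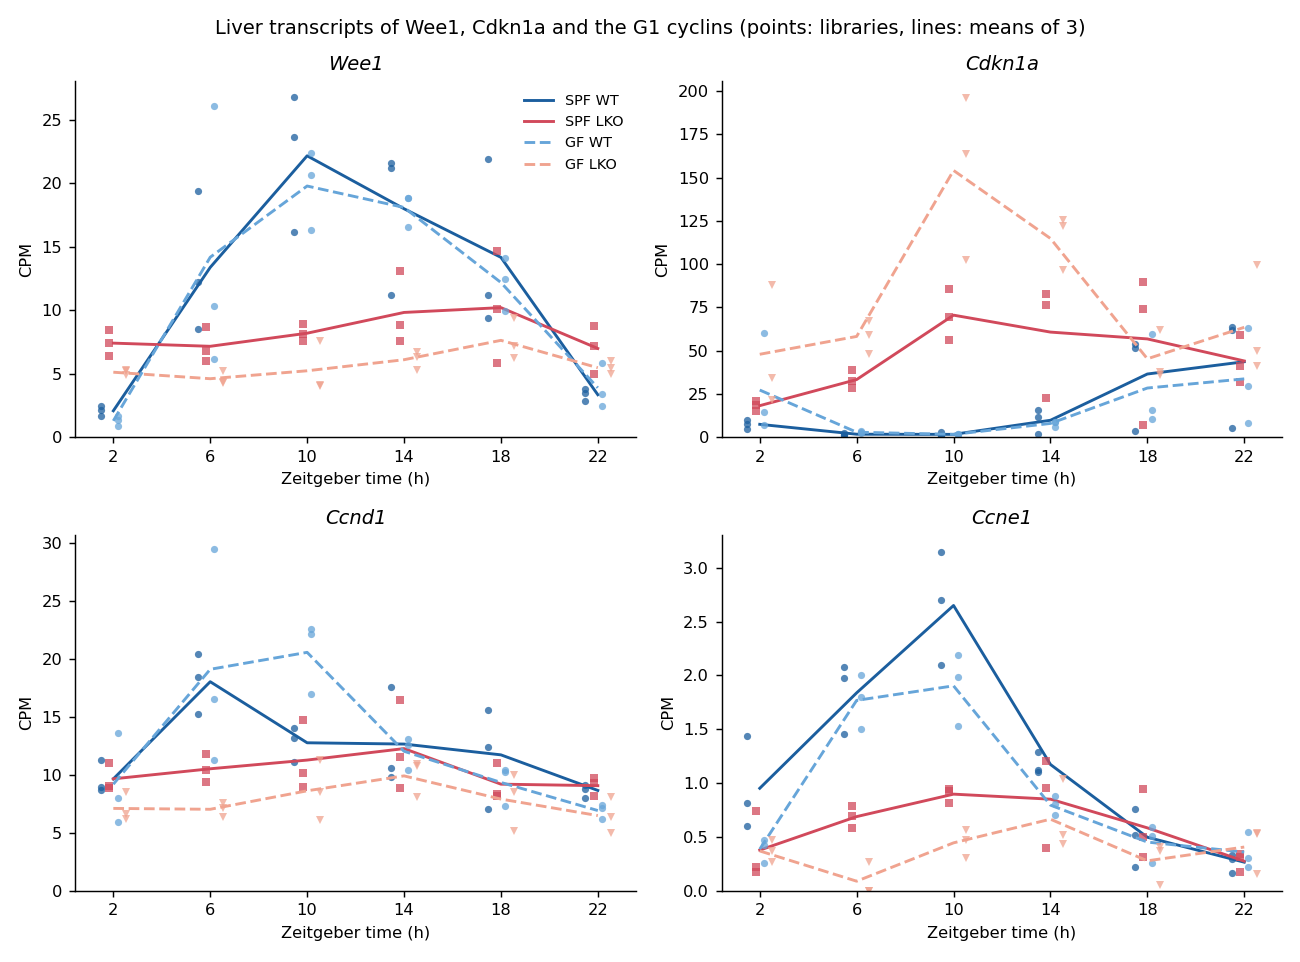
CPM of Wee1, Cdkn1a, Ccnd1 and Ccne1 against zeitgeber time, with 1 point per library and lines through the means of 3 libraries (solid for SPF, dashed for GF). The WT lines of Wee1 and Ccne1 peak at ZT10, where Cdkn1a is at its lowest in WT and at its highest in LKO liver, with means of 70.5 CPM in SPF LKO and 154 CPM in GF LKO mice.

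Several differences of Myc rested on single libraries with high values. In SPF mice it was at 2.16, 2.05 and 1.87 CPM in WT and 27.2, 5.15 and 2.79 CPM in LKO libraries at ZT2. At ZT22 the values were 2.42, 1.58 and 3.54 CPM in WT and 12.1, 44.6 and 3.36 CPM in LKO libraries. In GF mice at ZT6 WT libraries held 0.480, 1.69 and 1.78 CPM and LKO libraries 2.58, 3.06 and 25.3 CPM. LKO was above WT without overlap at ZT2 and, in GF mice, at ZT6, and 1 LKO library of each set of 3 was far above the other two. LKO was also above WT without overlap in SPF mice at ZT14 (log2 2.47, edgeR adjusted p = 0.331) and in GF mice at ZT22, where LKO libraries held 3.72, 7.78 and 2.90 CPM and WT libraries 2.08, 1.52 and 1.22 CPM (log2 1.57, adjusted p = 0.391). The differences in SPF mice at ZT2 and ZT22 and in GF mice at ZT6 passed the test with log2 values of 2.53 (edgeR adjusted p = 0.0335), 2.99 (adjusted p = 0.0326) and 2.96 (adjusted p = 0.043). Without the highest LKO library they were 0.97 (SPF LKO ZT2 replicate 1, adjusted p = 0.178), 1.6 (SPF LKO ZT22 replicate 2, adjusted p = 0.184) and 1.10 (GF LKO ZT6 replicate 3, adjusted p = 0.327). The calls of Myc were also lost without any 1 of the WT libraries of the same time, with edgeR adjusted p from 0.0689 to 0.106 in SPF mice at ZT2, 0.0515 to 0.141 at ZT22 and 0.0753 to 0.128 in GF mice at ZT6. High single libraries also occurred in WT mice, at 20.8 CPM in GF WT ZT14 replicate 3 and 16.8 CPM in GF WT ZT18 replicate 3. Over 18 libraries the medians were 2.10 CPM in SPF WT, 3.38 in SPF LKO, 2.08 in GF WT and 3.59 in GF LKO mice.

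The Gadd45 genes did not share a pattern. Gadd45a, which p53 and other stress signals induce, was lower in LKO liver at ZT10 in SPF mice, with 0.757, 5.14 and 8.57 CPM in WT and 1.90, 0.637 and 0.535 CPM in LKO libraries. These ranges overlapped, and the log2 value of -2.25 (edgeR adjusted p = 0.0316) was -1.56 (adjusted p = 0.168) without SPF WT replicate 3. It was also lost without SPF WT replicate 2 (adjusted p = 0.0607), SPF LKO replicate 2 (adjusted p = 0.11) or SPF LKO replicate 3 (adjusted p = 0.123). Its pooled medians were 2.25 CPM in SPF WT, 1.6 in SPF LKO, 1.39 in GF WT and 0.752 in GF LKO mice.

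Gadd45b, the TGF-beta and stress-induced member, was under 3 CPM in all 72 libraries. Its largest difference in SPF mice was at ZT22, with 2.03, 2.97 and 0.431 CPM in WT and 0.425, 0.354 and 0.383 CPM in LKO libraries, where all LKO values were below WT (log2 -2.21, edgeR adjusted p = 0.0852, DESeq2 adjusted p = 0.0164). Gadd45g varied widely between mice of one time, as at ZT10 in SPF WT mice, where the 3 libraries held 46.3, 1.48 and 19 CPM. No genotype difference of Gadd45b or Gadd45g passed at any ZT. For Gadd45g the sign at ZT2 in SPF mice turned from 0.28 to -2.06 (edgeR adjusted p = 0.0115) without SPF LKO replicate 1, which was at 52.2 CPM beside 4.74 and 3.18.

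**Figure D3:**
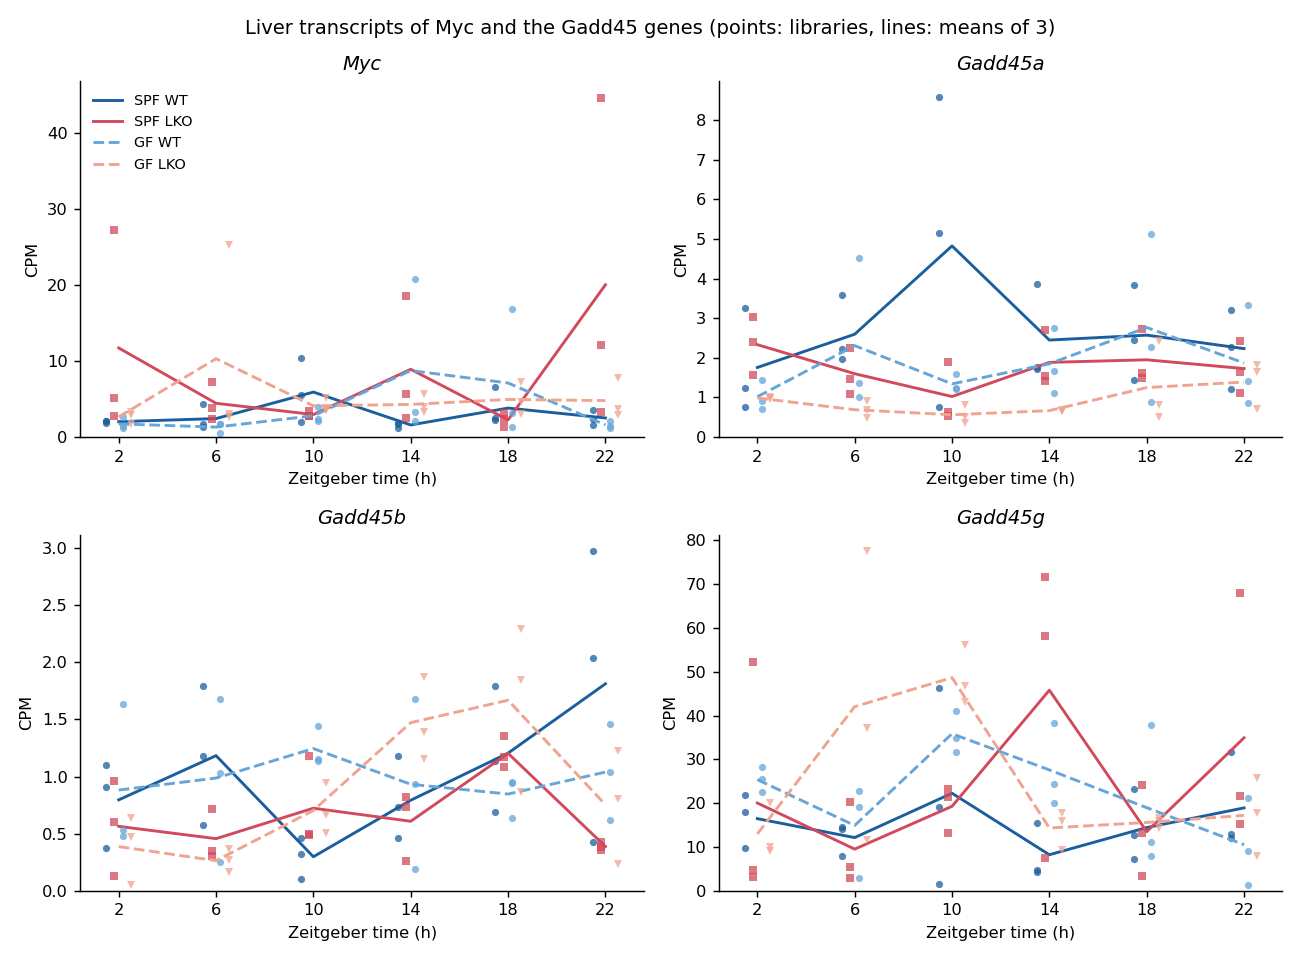
CPM of Myc, Gadd45a, Gadd45b and Gadd45g against zeitgeber time, with 1 point per library and lines through the means of 3 libraries (solid for SPF, dashed for GF). Single libraries lie far from the others of their set, such as 44.6 CPM of Myc in SPF LKO at ZT22 and 77.4 CPM of Gadd45g in GF LKO at ZT6.

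The members were also counted at each time of day, beside the share of all genes, which itself differed between times. In SPF mice 2 of 8 tested members passed at ZT2, beside 6.89% of all genes tested. ZT6 gave 1 of 8 (7.26%), and ZT10 gave 4 of 8 (11.9%). At ZT14 0 of 8 passed by edgeR (0.0%), with 4 at an unadjusted p under 0.05, 1 by DESeq2 and 2 (Wee1 and Cdkn1a) without the libraries that stood apart, where 5.51% of all genes passed. At ZT18 0 of 8 passed (0.015%), with 0 at an unadjusted p under 0.05 and 0 by DESeq2, and at ZT22 1 of 7 passed (3.31%). In GF mice 1 of 8 passed at ZT2 (4.21%). ZT6 gave 5 of 8 (11.7%), ZT10 gave 4 of 8 (13.1%) and ZT14 gave 2 of 8 (6.1%). At ZT18 0 of 8 passed by edgeR (8.43%), with 1 at an unadjusted p under 0.05 and 0 by DESeq2, and at ZT22 0 of 7 (4.44%), with 0 at an unadjusted p under 0.05 and 0 by DESeq2. The times were not tested against each other in this count. Without the filter on low counts SPF mice had 4, 1 and 4 members called at ZT14, ZT18 and ZT22, and GF mice had 5, 3 and 3. The share of all genes called without the filter is not given here, so these counts have no background. As an example, Cdkn1a in SPF mice at ZT2 had a log2 value of 1.30 (edgeR adjusted p = 0.281) with the filter. Without the filter it had 1.33 (adjusted p = 3.47e-15).

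**Figure D4:**
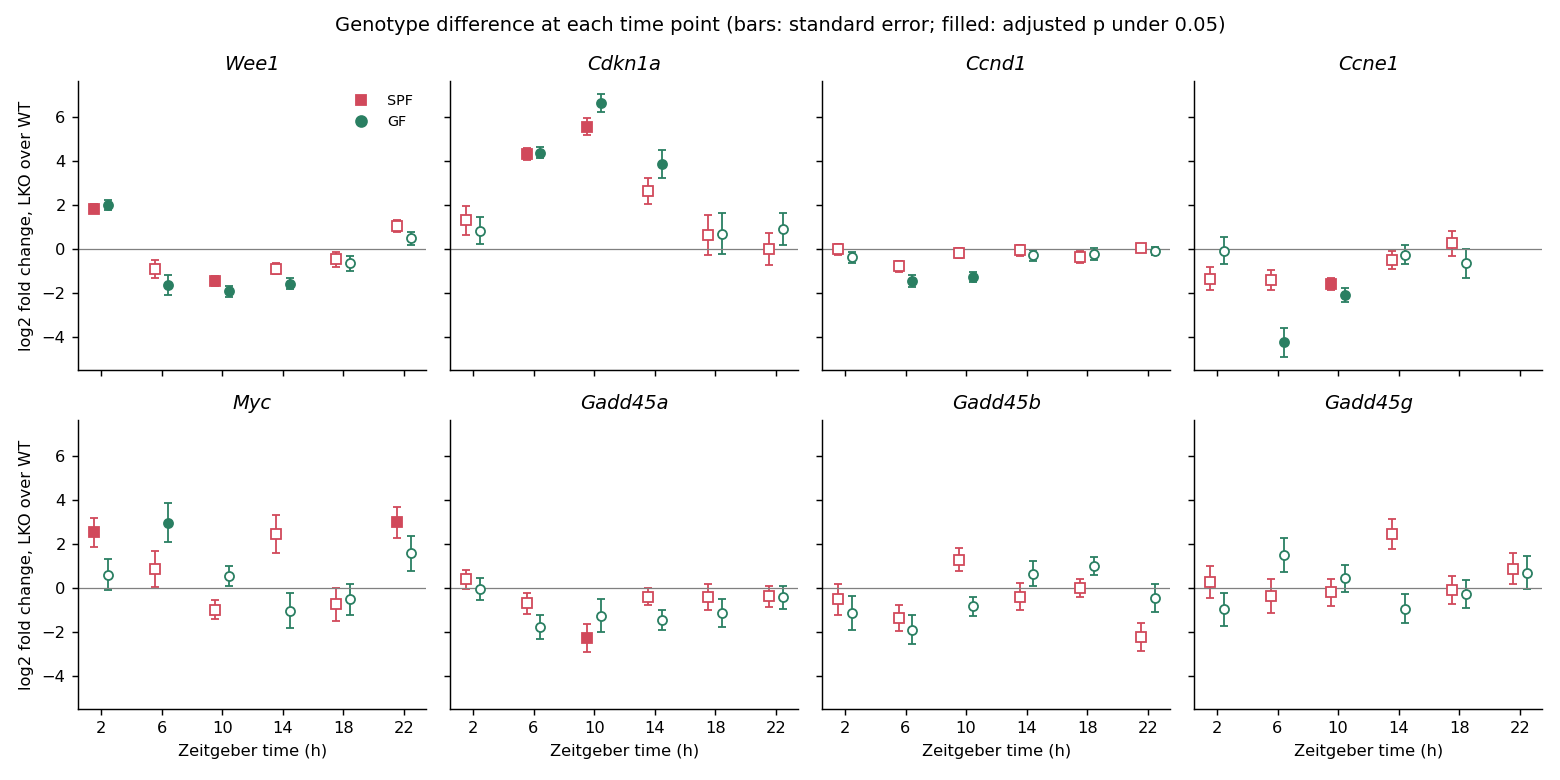
Log2 fold change of LKO over WT for each gene at each zeitgeber time, with SE bars, in SPF (squares) and GF mice (circles), filled where the adjusted p was under 0.05. Wee1 runs from 1.83 and 1.99 at ZT2 to -1.44 and -1.92 at ZT10, and Cdkn1a reaches 5.54 and 6.62 at ZT10. Ccne1 at ZT22 had no test.

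A cosine and a sine of 24 h were fitted to the counts of each group to describe the daily waves, and the amplitude is the log2 distance from the mean to the peak. In SPF WT mice 3 of 8 members were rhythmic, namely Wee1, Cdkn1a and Ccne1, beside 15.5% of all genes tested, and in GF WT mice 5 of 8, with Ccnd1 and Myc added, beside 27.7%. The rhythm of Myc in GF WT mice was not called by limma (adjusted p = 0.0609) or with ZT as 6 separate levels (edgeR adjusted p = 0.07). In SPF LKO mice 1 of 8 (Ccne1) was rhythmic, beside 22.2% of all genes. In GF LKO mice 5 of 7 were rhythmic, beside 36%, namely Wee1, Cdkn1a, Gadd45a, Gadd45b and Gadd45g.

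The wave of Wee1 had an amplitude of 1.6 (SE 0.22) in SPF WT and 1.56 (SE 0.26) in GF WT mice with its peak at 12.1 and 12 h. In LKO mice the amplitude was 0.27 (SE 0.11) in SPF and 0.30 (SE 0.08) in GF mice. Ccne1 had an amplitude of 1.47 (SE 0.16) in SPF WT and 1.38 (SE 0.16) in GF WT mice, with peaks at 8.79 and 8.95 h, and 0.81 (SE 0.20) in SPF LKO mice. Cdkn1a peaked at 19.9 h with an amplitude of 2.67 (SE 0.38) in SPF WT and at 21.4 h with 2.28 (SE 0.36) in GF WT mice. In GF LKO mice its peak was at 11.4 h with an amplitude of 0.74 (SE 0.18, edgeR adjusted p = 0.0102). In SPF LKO mice the fitted peak was at 14.2 h and the amplitude 0.80 (SE 0.25), which had an adjusted p of 0.066 with all libraries and of 0.000134 without those that stood apart. In GF LKO mice Gadd45b had an amplitude of 1.30 (SE 0.22, peak at 16.4 h), against 0.16 (SE 0.23) in GF WT mice.

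The change of the wave itself was tested by the interaction of group with both terms. By genotype, Wee1 (edgeR adjusted p = 0.00441) and Cdkn1a (adjusted p = 0.00157) passed in SPF mice, 2 of 8 members beside 1.06% of all genes. In GF mice 5 of 8 passed, beside 6.04%, namely Wee1 (adjusted p = 0.00131), Cdkn1a (adjusted p = 2.25e-05), Ccnd1 (adjusted p = 0.0194), Ccne1 (adjusted p = 0.0173) and Gadd45b (adjusted p = 0.0311). With ZT as 6 separate levels Cdkn1a in SPF mice, Ccnd1 and Gadd45b no longer passed. By microbes, 0 of 8 members passed in WT mice by edgeR (beside 0.0442% of all genes) and 0 of 8 in LKO mice (4.96%), with 1 member at an unadjusted p under 0.05 in each (Myc and Gadd45g) and 0 by limma.

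**Figure D5:**
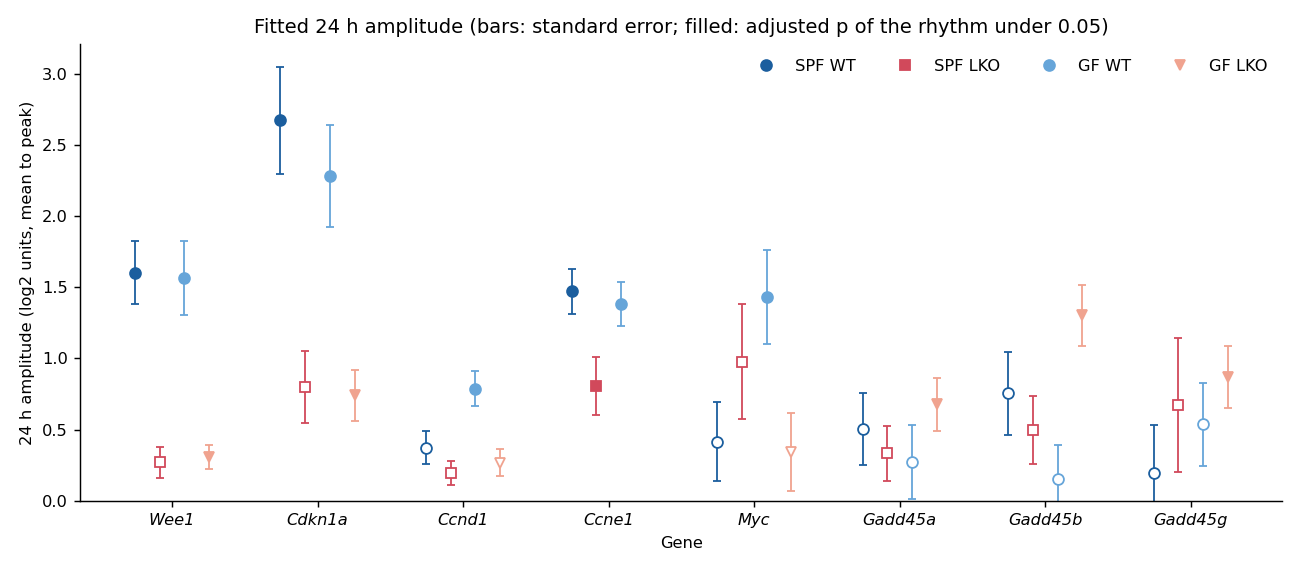
Amplitude of the fitted 24 h wave in log2 units from mean to peak, with SE bars, for each gene and group, filled where the rhythm had an adjusted p under 0.05. Wee1 and Cdkn1a have amplitudes from 1.56 to 2.67 in WT and from 0.27 to 0.80 in LKO mice, while Gadd45b is highest in GF LKO mice at 1.30. Ccne1 in GF LKO mice had no test.

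Between GF and SPF mice, members passed in LKO liver and none passed in WT liver with all libraries. Whether this difference depended on genotype was tested directly, and 0 of 8 members passed by edgeR, beside 0.438% of all genes. In WT mice 0 of 8 members passed by edgeR, beside 31.8% of all genes, with 1 (Gadd45a) at an unadjusted p under 0.05, 0 by DESeq2 and 1 (Gadd45a) without the libraries that stood apart. In LKO mice 4 of 7 members passed, beside 36.4% of all genes. Cdkn1a was higher in GF than in SPF LKO mice by 0.77 (SE 0.28, edgeR adjusted p = 0.0307), and Wee1 at -0.54 (SE 0.12, adjusted p = 0.00051), Ccnd1 at -0.40 (SE 0.10, adjusted p = 0.00295) and Gadd45a at -0.92 (SE 0.22, adjusted p = 0.00113) were lower. The Wee1 libraries of the LKO mice ran from 4.98 to 14.7 CPM with a median of 7.84 in SPF and from 4.04 to 9.40 CPM with a median of 5.29 in GF mice, so the groups overlapped. For Cdkn1a the LKO libraries ran from 6.82 to 89.6 CPM with a median of 39.8 in SPF and from 21.7 to 196 CPM with a median of 64.5 in GF mice, and without those that stood apart the difference was 0.65 (adjusted p = 0.054). SPF and GF mice were housed in different places, which cannot be told apart from their microbes here.

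The other genes of these pathways were taken from 5 lists, and their counts in the pooled genotype comparisons are read beside the 23.1% of all genes that passed in SPF and the 30.8% in GF mice. Among 17 other regulators of G1 and S phase 4 passed in SPF mice, 3 higher and 1 lower in LKO, and 5 in GF mice, all higher, with list medians of 0.04 and 0.05 beside -0.01 and 0.01 for all genes tested. Cdk6, a G1 kinase partner of the D cyclins, was higher by 0.64 in SPF (edgeR adjusted p = 3.14e-06) and 0.89 in GF mice (adjusted p = 7.32e-10). Ccne2, the other E cyclin, was higher by 0.48 and 0.60, opposite in sign to the SPF value of Ccne1, and the transcription factor E2f3 by 0.45 and 0.35. Of 15 regulators of G2 and mitosis 7 passed the filter on low counts, and 2 of the 7 rose in either condition. These were Ccnf, the F-box protein cyclin F, by 0.36 and 0.39, and the mitotic kinase Aurka by 0.26 and 0.37.

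Among 15 other targets and parts of the p53 pathway 14 were tested, and 1 rose in SPF mice (Phlda3, by 0.63, adjusted p = 0.00966) and 2 in GF mice (Ddit4 by 0.93, edgeR adjusted p = 0.0122, and Bax by 0.23, adjusted p = 0.00191), while the list medians were 0.04 and 0.03. Ddit4 encodes a stress-induced inhibitor of mTORC1 and Bax a protein of apoptosis. These fold changes were smaller than that of Cdkn1a in the same comparison. Of 11 partners of GADD45 proteins and stress kinases 4 passed in SPF mice, 1 higher and 3 lower, and 5 in GF mice, 1 higher and 4 lower, with list medians of -0.05 and -0.16. Map2k6, a kinase upstream of p38, had -0.74 with an edgeR adjusted p of 0.00171 in SPF and -1.24 with 2.97e-07 in GF mice, Map3k5 had -0.32 and -0.40, and Mapk14, p38 alpha itself, had -0.11 (adjusted p = 0.235) and -0.21 (adjusted p = 0.00941). Of 11 genes of the MYC network 9 were tested, and 1 rose and 2 fell in either condition, Mnt rising and Mxd1 falling in both. The MYC antagonist Mxd1 had -0.44 in SPF and -0.32 in GF mice, Mnt, another antagonist, had 0.37 and 0.38, and Mlxipl, the glucose-responsive factor ChREBP, had -0.35 in SPF mice (edgeR adjusted p = 0.0386), with -0.18 in GF mice (adjusted p = 0.383).

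Immediate early genes were read as a sign of acute stress at collection. Their summed level ran from 135 to 341 CPM in SPF WT, 103 to 337 in SPF LKO, 95.6 to 529 in GF WT and 99.6 to 728 in GF LKO libraries. Of 11 tested 0 rose and 2 fell in SPF LKO mice, and 0 rose and 1 fell in GF LKO mice. Of 7 acute phase genes 3 fell in SPF LKO mice, and 1 rose and 4 fell in GF LKO mice, with summed levels that overlapped between all groups. Over all genes the share called was 23.1% in SPF and 30.8% in GF mice. Without the libraries that stood apart, 6 acute phase genes and 4 immediate early genes fell in SPF LKO mice, beside 27.9% of all genes called in that setting. The median of the acute phase list went from -0.94 to -1.45. Their part in the values of Myc and of the Gadd45 genes was not tested.

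The genes whose profiles were most like those of the members were found by Pearson's r of log2 CPM over the 24 means of group and ZT, among 11085 genes whose log2 CPM averaged 1 or more. The means share libraries and scaling, and r is a description. Wee1 was most like the period genes Per3 (r = 0.92) and Per2 (r = 0.87), and Ccne1 was most like Dbp (r = 0.90), a clock-controlled transcription factor, and Tbc1d16 (r = 0.89). Cdkn1a was most like Pxmp4 (r = 0.94), a peroxisomal membrane protein, and Pitx3 (r = 0.94), and Ccnd1 like Slc5a6 and Anxa7 (both r = 0.87). Gadd45a was most like Asap3 and Slc25a37 (both r = 0.89), and Gadd45b like Keap1 (r = 0.76) and Pcbp1 (r = 0.73). Myc, with Gpr155 (r = 0.72) and Foxa1 (r = 0.68), and Gadd45g, with Kcnn2 (r = 0.66) and Pkig (r = 0.65), had the weakest likeness. Within the set, Cdkn1a ran against Ccne1 (r = -0.78) and Ccnd1 (r = -0.74).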

How the data were processed

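RNA was sequenced from 72 livers. The authors aligned the reads with STAR 2.6.1b to mm10 and deposited raw read counts per gene, made with featureCounts 2.0.0 on the Ensembl 97 annotation, without strand and without reads that mapped to several places or genes. Columns were matched to samples by the number in their names. Counts were tested with edgeR 4.0.16 in R 4.3.3 (TMM scaling, low counts removed by filterByExpr, quasi-likelihood test, Benjamini-Hochberg adjustment over all genes tested). The pooled comparisons used all 18 libraries a group, and those by ZT used the 12 libraries of that time. Rhythms were tested with a 24 h cosine and sine in place of the empirical JTK method of the study. DESeq2 1.42.0 and limma 3.58.1 were alternatives. CPM is counts scaled to a library of 1000000 reads, with library sizes adjusted by the TMM factors of all 72 libraries, and 0.5 was added before taking log2. The procedure was tested on simulated data. Replicate numbers were checked and did not pair mice across groups.

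The members and gene lists were chosen with earlier results of these data known. Named genes were the 8 members, up to 3 called genes of each pathway list with the largest mean absolute log2 fold change over SPF and GF mice, the 2 genes most like each member, and Arntl and Npas2. Promoter sequences came from RefSeq for GRCm38.p6. SEs and p-values cover the spread between mice, each library being 1 mouse. The pooled comparisons had no term for ZT, so their SEs and p-values also hold the differences between times of day.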

Additional observations from a re-analysis of the deposited data

Results flagged for a closer look

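The daily wave differed between WT and LKO mice, by the interaction of genotype with the 24 h terms in edgeR, for Wee1 (adjusted p = 0.00441) and Cdkn1a (adjusted p = 0.00157) in SPF mice. In GF mice it differed for Wee1 (adjusted p = 0.00131), Cdkn1a (adjusted p = 2.25e-05), Ccnd1 (adjusted p = 0.0194), Ccne1 (adjusted p = 0.0173) and Gadd45b (adjusted p = 0.0311). For Wee1 the amplitude in log2 units went from 1.6 to 0.27 in SPF and from 1.56 to 0.30 in GF mice, and for Cdkn1a from 2.67 to 0.80 and from 2.28 to 0.74. Ccnd1 went from 0.79 to 0.27 in GF mice, while Gadd45b was larger in GF LKO mice, at 1.30 against 0.16. Whether these changes differed between SPF and GF mice was not tested.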

How the results depend on the processing

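Over 3525 alternative values of the 8 genes, 3367 kept their side of the threshold, 60 were no longer past it, 97 came to pass it and 1 turned round and then passed it. Of the 3367, 62 changed sign where neither value passed. Among the same 3367, 2336 came from leaving out single libraries or replicate numbers, which keeps most libraries of the main fit. Without the filter on low counts 159 values kept their side and 36 came to pass. With ZT as a factor 56 kept their side and 7 were no longer past it. The one that turned round and passed was Gadd45g in SPF mice at ZT2, at -2.06 without SPF LKO ZT2 replicate 1 and up to 0.80 without another library. RLE in place of TMM scaling changed none of the calls it was run on.

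Counts of members called that moved by over 1.5 times were the following. Without the filter on low counts, they went in SPF mice from 1 to 5 at ZT6, 0 to 4 at ZT14, 0 to 1 at ZT18 and 1 to 4 at ZT22. In GF mice they went from 1 to 3 at ZT2, 5 to 8 at ZT6, 2 to 5 at ZT14, 0 to 3 at ZT18 and 0 to 3 at ZT22. Rhythms in SPF LKO went from 1 to 3 and changes of rhythm by microbes in LKO from 0 to 1. The share of all genes called in that setting is not given here. DESeq2 gave 3 at ZT6, 1 at ZT14 and 3 at ZT22 in SPF mice. Within 1.5 times it gave 4 pooled in SPF (Gadd45a added) and 5 in GF mice (Ccne1 added), and 6 at ZT6 and 3 at ZT14 in GF mice. Within 1.5 times, limma gave 4 rhythms in GF WT and 3 changes of rhythm by genotype in SPF mice. With only the 2 groups compared, there were 3 at ZT6 and 0 at ZT22 in SPF mice, and 3 at ZT6, 4 at ZT14 and 1 at ZT18 in GF mice. Without the 4 libraries that stood apart, there was 1 for microbes in WT, 2 at ZT14 in SPF, 3 at ZT6 in GF mice and 2 rhythms in SPF LKO. ZT as a covariate gave 1 for microbes in WT (Ccne1). ZT as a factor gave 0 rhythms in SPF LKO, 3 in GF LKO, and 1 and 3 changes of rhythm by genotype in SPF and GF mice. Within 1.5 times it gave 4 rhythms in GF WT. Except for the set without the libraries that stood apart, the share of all genes called in these settings is not given here. Those counts have no background. The cause of these moves was not tested.

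With replicate numbers left out in turn, or single libraries, members called ran from 1 to 4 for genotype in SPF, 3 to 4 in GF, 0 to 1 for microbes in WT, 3 to 4 in LKO and 0 to 0 for genotype by microbes. By ZT they ran in SPF mice from 1 to 3, 1 to 1, 3 to 4, 0 to 2, 0 to 0 and 0 to 2, and in GF mice from 1 to 2, 3 to 6, 4 to 4, 2 to 2, 0 to 0 and 0 to 0. Rhythms ran from 3 to 4 in SPF WT, 1 to 2 in SPF LKO, 5 to 5 in GF WT and 4 to 6 in GF LKO, and changes of rhythm by genotype from 2 to 2 in SPF and 4 to 6 in GF mice. The shares of all genes in these refits are not given here. Myc in GF mice passed without replicate number 3 (1.20, edgeR adjusted p = 0.000443), Ccne1 in SPF mice missed without number 1 (-0.98, adjusted p = 0.0728), and Cdkn1a for microbes in LKO missed without any 1 number (adjusted p from 0.0888 to 0.106). The changed rhythm of Gadd45b in GF mice was lost without GF WT ZT2 replicate 1, ZT6 replicate 1 or ZT18 replicate 2, or GF LKO ZT6 replicate 1, ZT18 replicate 1 or ZT18 replicate 3 (adjusted p from 0.0509 to 0.077). The rhythm of Wee1 in GF LKO was lost without ZT18 replicate 1 (adjusted p = 0.0904), and that of Gadd45a without ZT10 replicate 3 (adjusted p = 0.0519) or ZT22 replicate 3 (adjusted p = 0.06). Cdkn1a in GF mice at ZT2 passed without GF WT replicate 1 (2.18, adjusted p = 0.0379).

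Groups share replicate numbers, but the deviations of same-numbered libraries correlated from -0.151 to 0.352 in SPF mice from -0.249 to 0.294 in GF mice, from -0.152 to 0.457 between WT mice and from -0.364 to 0.17 between LKO mice, so the numbers were not taken as pairs. With a replicate block, members called were 2 for genotype in SPF, 3 in GF and 1 for microbes in WT, with 1 at ZT2 and 0 at ZT22 in SPF mice. The share of all genes with that block is not given here. The calls that changed with the replicate block were Myc in SPF mice pooled (0.94, edgeR adjusted p = 0.0923), at ZT2 (2.25, adjusted p = 0.0548) and at ZT22 (2.45, adjusted p = 0.0827), Wee1 in GF mice (-0.66, adjusted p = 0.106), Gadd45a in SPF mice at ZT10 (-2.09, adjusted p = 0.0825) and Gadd45a for microbes in WT (-0.55, adjusted p = 0.04).

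With 3 mice a time, differences by ZT were seen only where large, and Ccne1 and Gadd45b rest on few reads.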

Other observations

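The libraries with the highest Myc also held much Gadd45g, a pattern looked at after the values were seen. Myc and Gadd45g were at 44.6 and 67.9 CPM in SPF LKO ZT22 replicate 2, at 27.2 and 52.2 CPM in SPF LKO ZT2 replicate 1, at 18.6 and 58.2 CPM in SPF LKO ZT14 replicate 1 and at 25.3 and 77.4 CPM in GF LKO ZT6 replicate 3. Among WT mice, the highest Myc values, 20.8 and 16.8 CPM in GF WT ZT14 replicate 3 and ZT18 replicate 3, came with 38.2 and 37.9 CPM of Gadd45g. The reverse did not hold, since SPF LKO ZT14 replicate 2 had 71.6 CPM of Gadd45g with 5.66 CPM of Myc, GF LKO ZT10 replicate 2 had 56.1 with 3.58, GF LKO ZT10 replicate 1 had 46.7 with 5.14 and GF WT ZT10 replicate 3 had 41.1 with 3.97.

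Over the 18 libraries of each group, Pearson's r of log2 CPM of Myc and Gadd45g was 0.70 in SPF LKO, 0.58 in GF LKO, 0.40 in GF WT and 0.26 in SPF WT mice, and Spearman's rho was 0.63, 0.59, 0.56 and 0.28. These are descriptions over libraries that share the group and differ in ZT. Without the 2 libraries farthest from the median of Myc, r was 0.59, 0.31, 0.24 and 0.39 in the same order. Leaving out the extremes of Myc also narrows its range, and rho was not computed without them. How far the values in GF LKO and GF WT mice rest on those libraries is therefore not settled.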
